A study of Mus musculus with 6 samples.

Results

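The 40 genes described here encode the aminoacyl-tRNA synthetases of the mouse and 2 scaffold proteins that hold part of them together, out of 54446 genes counted in mouse liver. They were chosen by gene symbol alone, as the symbols that join a 1-letter amino acid code to "ars" (with Eprs, Ears2, Pars2, Farsa, Farsb and Tarsl2) and as Aimp1 and Aimp2, and not by any measured value. Earlier results of these data were known when the family was chosen. Of the 40, 19 encode enzymes of the cytosol, 17 enzymes of the mitochondria, 2 (Gars and Kars) enzymes made for both compartments from 1 gene, and 2 the scaffold proteins. RNA-seq libraries came from 6 whole livers, 3 of WT and 3 of Fmo5-/- animals and 1 library per animal, so the single comparison is Fmo5-/- over WT. All mice were males of 32 weeks on a C57BL/6 background (C57BL/6J in the methods of the study), bred in the same facility and fed a standard chow diet, and the Fmo5-/- mice carry the disrupted gene of flavin-containing monooxygenase 5 in all tissues. No other allele or agent was used. Mice are numbered 1 to 3 within a genotype, and a number has no meaning across genotypes.

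An aminoacyl-tRNA synthetase joins an amino acid to the tRNA that carries its anticodon, with the use of ATP, and so sets the genetic code at the moment that it is read. Mammals make separate sets of these enzymes for the cytosol and for the mitochondria, where they serve only the proteins that mitochondrial DNA encodes, and the symbols of the mitochondrial enzymes end in 2. Several of the cytosolic enzymes are bound in a multisynthetase complex with the scaffold proteins AIMP1 and AIMP2. The liver, which exports most of the plasma proteins, has a high demand for charged tRNA, and the genes of many cytosolic synthetases are known targets of ATF4, the transcription factor of the amino acid response.

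Between 44886286 and 52338675 counts per library lay on genes. Of the reads of a library, 6.86% to 7.02% in WT and 6.96%, 8.63% and 8.28% in Fmo5-/- mice 1 to 3 lay outside genes. Reads without a place (9.72% to 10.1% in WT, 9.10% to 9.20% in Fmo5-/-) and with several places (11.8% to 13.1%, 10.4% to 11.5%) were fewer in every Fmo5-/- library, and reads on several genes (3.52% to 3.62%, 3.72% to 3.98%) were more. The part of these shares in the values was not tested. Counts were scaled with TMM factors to the mean library size and are given below as normalised counts. Fmo5 had 39808, 37405 and 30239.7 in the WT mice and 1071, 1102 and 1194 in the Fmo5-/- mice, so each library carries the transcript level that its label implies. The 6 hepatocyte markers summed to between 5016222 and 6618304 normalised counts in WT livers and between 5160378 and 6457550 in Fmo5-/- livers, with overlap and with 0 of 6 called. Markers of 3 other kinds of cell moved with genotype. The 6 Kupffer cell markers summed to 7357 to 8754 in WT and 11681 to 21603 in Fmo5-/- livers, the 5 lymphocyte markers to 129 to 208 and 261 to 809, and the 4 markers of proliferating cells to 229 to 243 and 296 to 762. Every one of these 15 genes had a log2 fold change above 0, no marker was at 0, and 1 of the 15, Clec4f of Kupffer cells, was called by edgeR (adjusted p = 0.0275), while DESeq2 called 9 of the 15 and 13 were higher without overlap (1.37%, 8.96% and 13.9% of all genes). Markers of stellate cells, endothelial cells and cholangiocytes, 5 of each, had sums that overlapped between the genotypes, and 0 of these 15 were called by either tool. Whole-liver libraries cannot tell fewer cells of a type from less RNA per cell, and the part of these other cells in the values below was not tested. The p-values measure the spread between these mice.

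All 40 genes were expressed and passed the filter on low counts, and their transcript levels spread widely. Levels are compared between genes as normalised counts per kilobase of the principal transcript per 1000000 counts. The range ran from 0.402 for Mars2 to 115 for Lars2 as means over the 6 livers. Both are mitochondrial enzymes, and the level of Lars2 is uncertain, as described with its counts. The lowest rank of Mars2 rests on its principal transcript of 11294 bases. By mean normalised counts Pars2, at 147, lay below Mars2, at 222. The median level was 17.4 over the 19 cytosolic enzymes and 7.79 over the 17 mitochondrial enzymes. The highest cytosolic levels were those of Aars, Tars, Nars and Dars, which charge alanine, threonine, asparagine and aspartate, at 52.8, 50.8, 49.1 and 38.5. The ranges of these 4 over the livers overlapped in every pairing but that of Aars and Dars. The lowest cytosolic level was that of Tarsl2, a second cytosolic threonyl-tRNA synthetase, at 3.89. Leaving Lars2 aside, the mitochondrial levels ran from 13.8 for Fars2 down to 1.38, 1.27 and 0.402 for Pars2, Wars2 and Mars2, the prolyl-, tryptophanyl- and methionyl-tRNA synthetases.

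**Figure D1:**
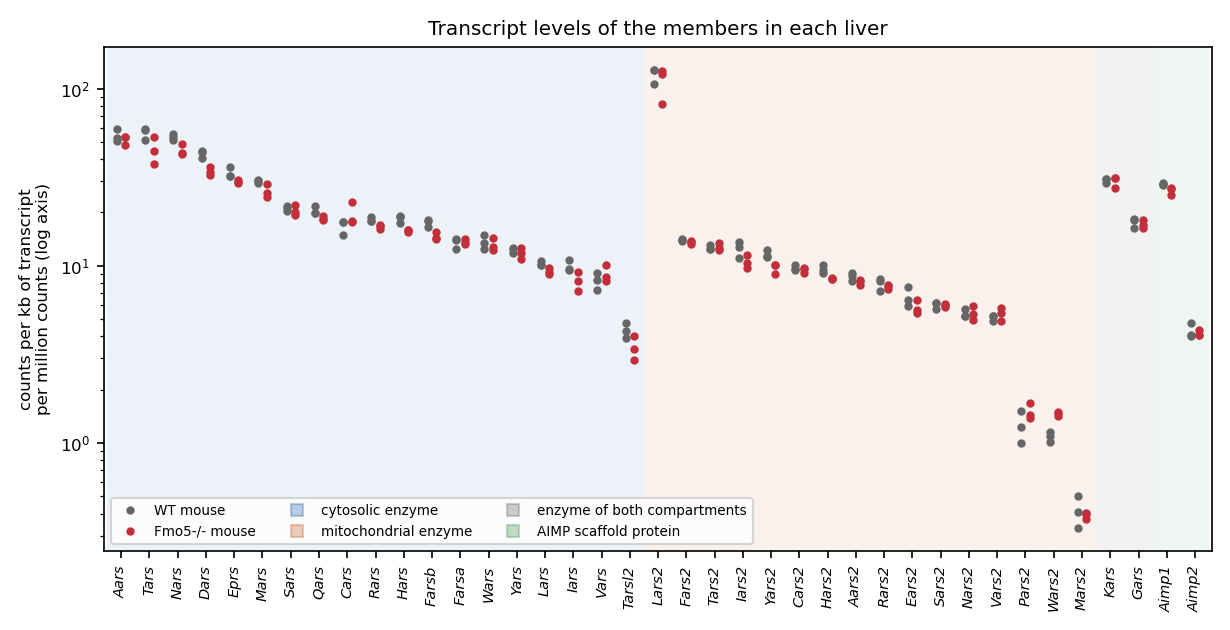
Transcript level of 39 of the 40 genes in each of the 6 livers, as normalised counts per kilobase of transcript per 1000000 counts on a log axis. Grey points are WT mice, red points Fmo5-/- mice and shading marks the compartment. Lars2 stands above all other genes, with 1 low Fmo5-/- liver, and Pars2, Wars2 and Mars2 lie lowest in every liver.

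No member differed between the genotypes at an adjusted p under 0.05 with edgeR (0 of 40), where the same test called 229 of 16734 genes, or 1.37%. Adjusted p-values of the members ran from 0.0710 for Dars to 0.988 for Sars2. At an unadjusted p under 0.05, 11 members were lower in Fmo5-/- livers and 1, Wars2, was higher, where 10.2% of all tested genes were lower and 11.6% higher at that limit. Of tested genes with a mean of 500 or more, as 36 of the 40 members have, 17.6% were lower at that limit. DESeq2, the tool that the study used, called 1 member, Dars, as lower, beside 8.96% of its genes in either direction and 4.21% as lower.

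The direction of the members was uneven. The log2 fold change was below 0 for 32 of the 40 and above 0 for 8, with a median of -0.09, whereas over all tested genes the median was 0.01 and 49.2% lay below 0. Genes of high count leaned the same way as the members, since 64.0% of those with a mean of 500 or more lay below 0, with a median of -0.06, beside 30 of 36 members and a median of -0.12. When only genes with a mean of 500 or more were kept for the scaling and the fit, 22 of the 36 members fitted lay below 0 and 14 above it, with a median of -0.06. That fit shifted all shared genes by a median of 0.06, and its own share of genes below 0 was not taken. Without WT mouse 2, 27 of the 40 lay below 0 and 13 above it, and with the reads of 1 strand 29 and 11. In the other alternatives that fitted all 40, between 30 and 33 lay below 0. Summed over the 40 genes, normalised counts were 122867, 125216 and 116727 in WT and 110880, 110532 and 110720 in Fmo5-/- livers, a mean 8.96% lower with no overlap. For the 36 members in the fit to genes of high count, a median was taken in each liver against the mean log2 level of the WT livers. The highest Fmo5-/- median, -0.024, lay above the lowest WT median, -0.0247, so the genotypes overlapped there.

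For 15 members every Fmo5-/- liver lay below every WT liver, and for 1, Wars2, every one lay above, where 13.5% of all tested genes separated as lower and 13.9% as higher. Among tested genes with a mean of 500 or more, 21.9% separated as lower and 9.39% as higher. When only those genes were kept for the scaling and the fit, 9 of the 36 members fitted separated as lower and 2, Cars and Sars2, as higher, where the same 36 have 15 and 0 as reported. The shares over all genes were not taken in that fit, and those above are from the scaling over all tested genes. Wars2 is not among the 36. Among the 15 were Dars, Eprs, Farsb, Hars, Iars, Lars, Mars, Nars, Qars and Rars of the cytosol, Fars2, Hars2 and Yars2 of the mitochondria, and Aimp1. The other 24 members overlapped.

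**Figure D2:**
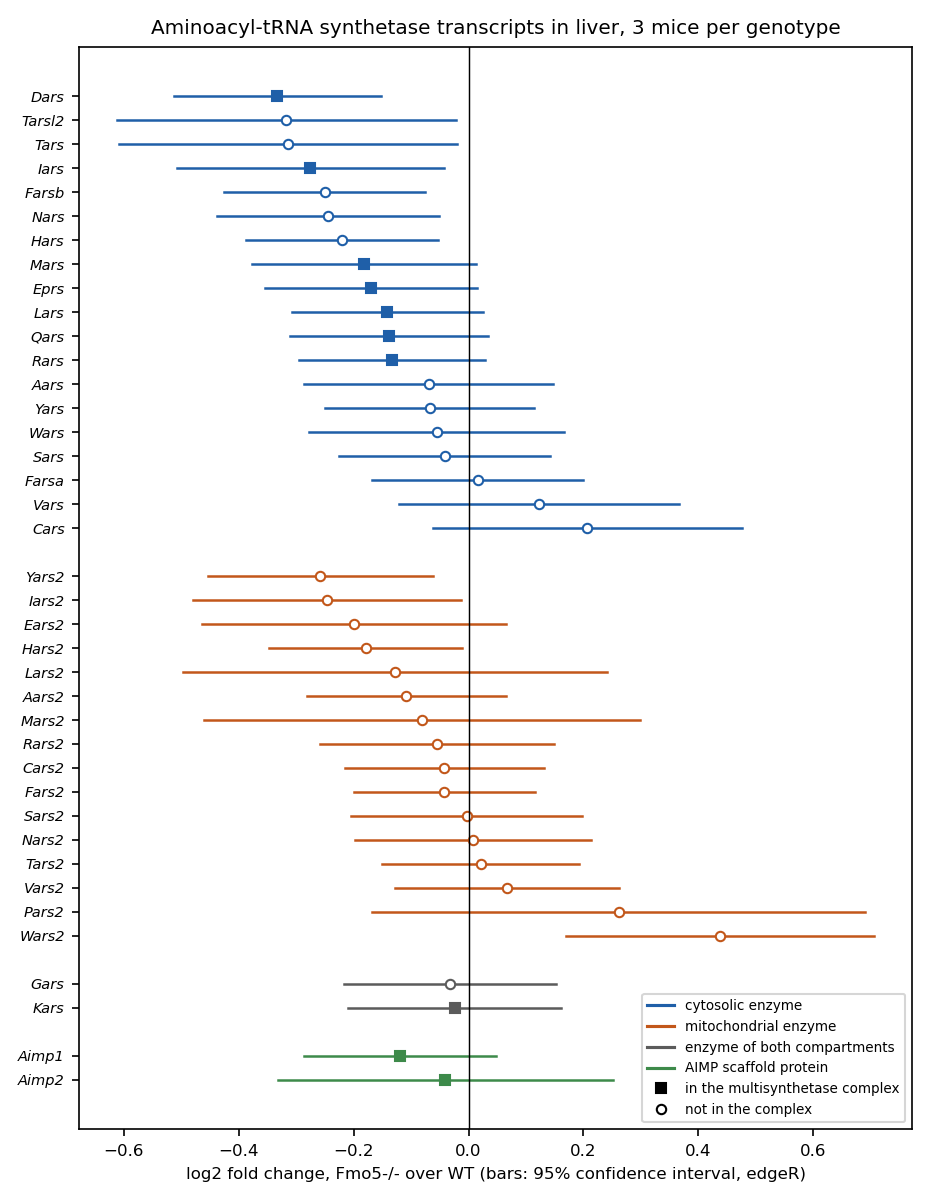
Log2 fold change of 39 of the 40 members, Fmo5-/- over WT, with its 95% confidence interval from edgeR (3 mice per genotype). Colours give the compartment and filled squares the members of the multisynthetase complex. All 10 complex members lie left of 0, from -0.33 for Dars to -0.02 for Kars, whose sign turned under another scaling, and Wars2 at 0.44 lies farthest to the right.

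The enzymes of the multisynthetase complex lay mostly on 1 side. The complex is represented by 10 members, namely 7 cytosolic enzymes, Kars and both scaffold genes. The 7 cytosolic enzymes, Dars, Eprs, Iars, Lars, Mars, Qars and Rars, each had every Fmo5-/- liver below every WT liver, and their log2 fold changes ran from -0.33 to -0.13 with a median of -0.17. When only genes with a mean of 500 or more were kept for the scaling and the fit, 3 of the 7 separated in this way, and the log2 fold changes ran from -0.27 to -0.07 with a median of -0.10. Their summed counts were 25274, 26662 and 25031 in WT and 23295, 21590 and 22139 in Fmo5-/- livers, a mean 12.9% lower. Of the 12 cytosolic enzymes outside the complex, 3 separated in this way, 9 lay below 0 and 3 above it, and the median was -0.07. When only genes with a mean of 500 or more were kept, 3 of the 12 separated as lower and 1, Cars, as higher, with a median of -0.0038. With each library left out in turn the median of the 12 ran from -0.11 to -0.05. Without Fmo5-/- mouse 1, 7 of the 12 separated as lower, beside all 7 of the complex. With 1 library fewer, a gene that separates can hardly cease to, and others separate more easily. All 19 have a mean of 500 or more, and of all tested genes at that level 21.9% separated as lower and 64.0% lay below 0 with all libraries. These shares are from the fit to all tested genes, and those of the other fits were not taken. With all libraries the shares of the 12 are thus near those of all genes of high count. The complex and the other enzymes were not compared with a test, because genes are not replicates.

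Dars, the aspartyl-tRNA synthetase of the complex, had the smallest p of all members. The gene lies at chr1:128363707-128417368 on the minus strand (mm10). Its normalised counts were 4650.2, 4706 and 4328 in the WT mice and 3825, 3430.1 and 3609 in the Fmo5-/- mice. All 3 Fmo5-/- livers were below the lowest WT liver, and the gap between the groups was wider than the range within either. The mean was 4561 ± 204 (SD, n = 3) in WT and 3621 ± 198 (SD, n = 3) in Fmo5-/- livers, 20.6% lower. The log2 fold change was -0.33 (SE 0.080, 95% confidence interval -0.51 to -0.15), with an adjusted p of 0.0710 in edgeR and 0.0115 in DESeq2. Without a filter on low counts edgeR gave an adjusted p of 0.0141, and with each library left out in turn the log2 fold change stayed between -0.38 and -0.29 with adjusted p from 0.0848 to 0.202.

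The remaining cytosolic enzymes of the complex differed less or varied more. Iars, for isoleucine, had a log2 fold change of -0.28 (SE 0.10) and a mean of 2143 ± 163 in WT and 1771 ± 209 in Fmo5-/- livers (SD, n = 3). Mars, for methionine, and Eprs, which carries the glutamyl and prolyl enzymes on 1 protein, had -0.18 and -0.17. Lars, Qars and Rars, for leucine, glutamine and arginine, lay between -0.14 and -0.13, with Qars at -0.09 without WT mouse 2. The adjusted p-values of these 6 ran from 0.167 to 0.331.

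Outside the complex, Farsb, Nars and Hars separated without overlap. Farsb encodes the beta subunit of phenylalanyl-tRNA synthetase and had 1768, 1794 and 1654 in the WT mice and 1545, 1411 and 1428 in the Fmo5-/- mice (log2 fold change -0.25, SE 0.078, adjusted p = 0.113). Farsa, its alpha subunit, with which it forms 1 enzyme, had 1114, 1242 and 1265 in the WT mice and 1214, 1182 and 1265 in the Fmo5-/- mice (log2 fold change 0.02, SE 0.081, adjusted p = 0.929). The subunits thus differed in where their livers lay, Farsb being lower in all 3 Fmo5-/- mice and Farsa overlapping throughout, and whether their changes differ was not tested. Nars, for asparagine, had 7115, 7434 and 6867 in the WT mice and 6521, 5736 and 5817 in the Fmo5-/- mice (log2 fold change -0.24, SE 0.085, adjusted p = 0.145). Hars, for histidine, had 1852, 1691 and 1817 in the WT mice and 1542, 1554 and 1503 in the Fmo5-/- mice (log2 fold change -0.22, SE 0.074, adjusted p = 0.133). For both, the highest Fmo5-/- liver lay below the lowest WT liver, by less than the range of the WT group.

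The cytosolic threonyl-tRNA synthetases, Tars and Tarsl2, had their lowest values in the same mouse. Tars had 11566, 9994 and 11429.9 in the WT mice and 10459, 7365 and 8713 in the Fmo5-/- mice (log2 fold change -0.31, SE 0.13, adjusted p = 0.203), and Tarsl2 had a log2 fold change of -0.32 (SE 0.13). Fmo5-/- mouse 2 was lowest for both and Fmo5-/- mouse 1 lay inside the WT range for both, so the genotypes overlapped. Without Fmo5-/- mouse 2 the log2 fold change was -0.20 for Tars and -0.22 for Tarsl2. Without a filter on low counts Tars was called as well (adjusted p = 0.0283, edgeR, where 5.82% of genes were called). Aars, the most abundant cytosolic member, had 14726, 16603 and 14143 in the WT mice and 15003, 14874 and 13455 in the Fmo5-/- mice (log2 fold change -0.07, SE 0.096, adjusted p = 0.723). Its WT mouse 2 was the highest of all 6, and without that library the log2 fold change was 0.0022.

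Cars, Vars and Farsa were the cytosolic members with a log2 fold change above 0. Cars, for cysteine, had 2789, 2359 and 2785 in the WT mice and 3589, 2805 and 2765 in the Fmo5-/- mice (log2 fold change 0.21, SE 0.12, adjusted p = 0.351). Fmo5-/- mouse 1 stood above the other 5, which lay between 2359 and 2805. Vars, for valine, had 1477, 1828 and 1688 in the WT mice and 2031, 1655 and 1749 in the Fmo5-/- mice (log2 fold change 0.12, SE 0.11, adjusted p = 0.554). It too was highest in Fmo5-/- mouse 1 and overlapped in the rest. Without Fmo5-/- mouse 1 the log2 fold change was 0.07 for Cars and 0.03 for Vars, without WT mouse 2 it was 0.13 and 0.20, and for Vars it was 0.05 without WT mouse 1 and 0.18 without Fmo5-/- mouse 2. Sars, Wars and Yars, for serine, tryptophan and tyrosine, had log2 fold changes of -0.04, -0.06 and -0.07, with overlap, and their 95% intervals lay within -0.28 and 0.17. Those of Sars and Wars turned to 0.02 and 0.01 when only genes with a mean of 500 or more were kept, and that of Yars was then -0.0037. Without Fmo5-/- mouse 1 or 2 Yars had -0.12 or -0.02.

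The spread between mice had a pattern of its own. Fmo5-/- mouse 1 had the highest value of the 3 Fmo5-/- mice for 14 of the 19 cytosolic enzymes, and mouse 2 the lowest for 12. WT mouse 2 had the highest of the 3 WT mice for 25 of the 40 members. Set against the mean log2 level of the WT livers, the median of the 19 cytosolic enzymes was -0.09 in Fmo5-/- mouse 1 and -0.17 in each of mice 2 and 3, while in the WT mice it lay between -0.04 and 0.04. The median of the 17 mitochondrial enzymes was -0.04, -0.07 and -0.01 in the Fmo5-/- mice and between -0.05 and 0.06 in the WT mice. The cytosolic medians of the Fmo5-/- mice all lay below those of the WT mice, the closest being -0.09 against -0.04, and the mitochondrial medians overlapped. When only genes with a mean of 500 or more were kept, the highest cytosolic median of the Fmo5-/- mice was -0.05 and the lowest of the WT mice -0.02. Fmo5-/- mice 2 and 3, with the lower cytosolic medians, are also those with the larger shares of reads outside genes. The difference between the classes was not tested.

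**Figure D3:**
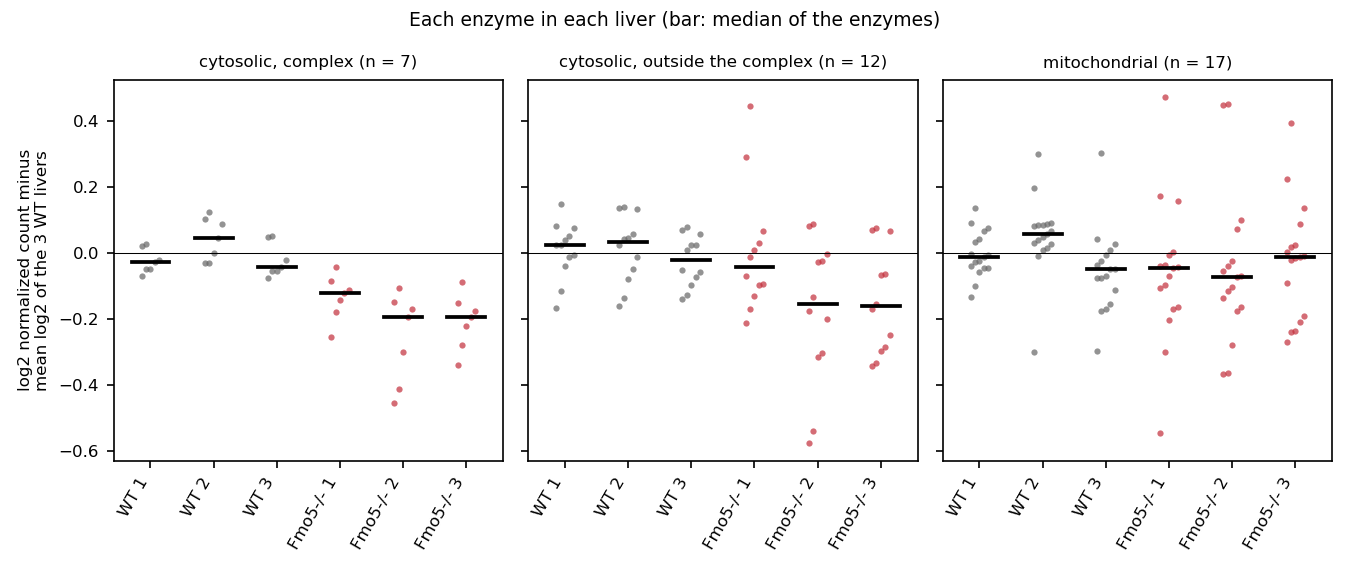
Log2 normalised count of each enzyme in each liver minus its mean log2 over the 3 WT livers, for the 7 cytosolic enzymes of the complex, the 12 other cytosolic enzymes and the 17 mitochondrial enzymes. Points are genes and black bars the median of the genes. In the complex the medians of the Fmo5-/- livers are -0.12, -0.19 and -0.19, below all 3 WT medians, whereas the mitochondrial medians of the genotypes overlap.

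Of the 17 mitochondrial enzymes 0 were called by edgeR or DESeq2, beside 1.37% and 8.96% of all their genes. The log2 fold change was below 0 for 12 and above it for 5, and the median was -0.05, or -0.01 without WT mouse 2. With the reads of 1 strand 10 lay below 0 and the median was -0.022. When only genes with a mean of 500 or more were kept, 7 of the 14 fitted lay below 0 and the median was -0.017. At an unadjusted p under 0.05, 4 were lower and 1 was higher, beside 10.2% and 11.6% of all tested genes and 17.6% lower at means of at least 500. Yars2, for tyrosine, had 866, 944 and 861 in the WT mice and 773, 690.2 and 771 in the Fmo5-/- mice (log2 fold change -0.26, SE 0.087, adjusted p = 0.135). All its Fmo5-/- livers lay below all its WT livers. Hars2, for histidine, had 1640.4, 1545 and 1483 in the WT mice and 1383, 1377 and 1364 in the Fmo5-/- mice (log2 fold change -0.18, SE 0.074, adjusted p = 0.203). Its Fmo5-/- livers lay close together and below the WT livers. Iars2, for isoleucine, had 3647, 3387 and 2949 in the WT mice and 3085, 2581 and 2749.9 in the Fmo5-/- mice (log2 fold change -0.25, SE 0.10, adjusted p = 0.206), and Fmo5-/- mouse 1 lay above WT mouse 3. Fars2, the second highest mitochondrial member by level, had 1438, 1463 and 1443 in the WT mice and 1408, 1377 and 1435 in the Fmo5-/- mice (log2 fold change -0.04, SE 0.070, adjusted p = 0.778). It separated without overlap although the means differed by 2.86%, and its direction turned when only genes with a mean of 500 or more were kept, to 0.02, and with the reads of 1 strand, to 0.06.

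The rest of the mitochondrial set lay close to 0 or varied widely. Ears2, for glutamate, had 642, 759 and 595 in the WT mice and 538, 637 and 563 in the Fmo5-/- mice, with overlap (log2 fold change -0.20, SE 0.12, adjusted p = 0.361), and the log2 fold change was -0.09 without WT mouse 2. Aars2, for alanine, had a log2 fold change of -0.11, or -0.07 without WT mouse 1. It was -0.04 when only genes with a mean of 500 or more were kept and -0.02 with the reads of 1 strand. Mars2, Rars2, Cars2 and Sars2 lay between -0.08 and -0.0032, and Nars2, Tars2 and Vars2 between 0.01 and 0.07. Tars2, for threonine, had 1447, 1525 and 1452 in the WT mice and 1429.9, 1581 and 1479 in the Fmo5-/- mice. Vars2, for valine, had 1060.1, 1124 and 1125 in the WT mice and 1243, 1051 and 1171 in the Fmo5-/- mice. In both the genotypes were interleaved, and without Fmo5-/- mouse 1 or 2 Vars2 had a log2 fold change of 0.0095 or 0.13. Pars2, for proline, had 131, 107 and 163 in the WT mice and 147, 179.9 and 154 in the Fmo5-/- mice (log2 fold change 0.26, SE 0.19, adjusted p = 0.467). Its WT livers ranged more widely than its Fmo5-/- livers, and its 95% interval ran from -0.17 to 0.69. Without WT mouse 2 the log2 fold change was 0.13, without Fmo5-/- mouse 2 it was 0.17 and without WT mouse 3 it was 0.43.

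Wars2, the mitochondrial tryptophanyl-tRNA synthetase, was the member with the largest difference and the only 1 that was higher without overlap. Its normalised counts were 217, 247 and 234 in the WT mice and 322, 318 and 305 in the Fmo5-/- mice. The lowest Fmo5-/- liver exceeded the highest WT liver by more than the WT livers differed among themselves. The mean was 233 ± 14.8 in WT and 315 ± 8.77 in Fmo5-/- livers (SD, n = 3 each), 35.4% more, and the test did not pass (log2 fold change 0.44, SE 0.12, adjusted p = 0.0858 in edgeR and 0.0516 in DESeq2). Over the left-out libraries its log2 fold change stayed between 0.40 and 0.48. Wars2 is also the member nearest to the targeted gene. It lies at chr3:99141068-99239186 on the plus strand, 1.486 Mb from Fmo5 on chromosome 3, and Tars2 lies 1.869 Mb to the other side with a log2 fold change of 0.02. Sars and Aimp1 are on the same chromosome, 10.77 and 35.005 Mb away. Of the tested genes near Fmo5, 3 of 69 (4.35%) were called within 2 Mb and 18 of 427 (4.22%) within 20 Mb, beside 1.37% of all genes. Within 20 Mb, 16.6% of genes were higher without overlap. The part of position on the chromosome in the Wars2 values was not tested.

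**Figure D4:**
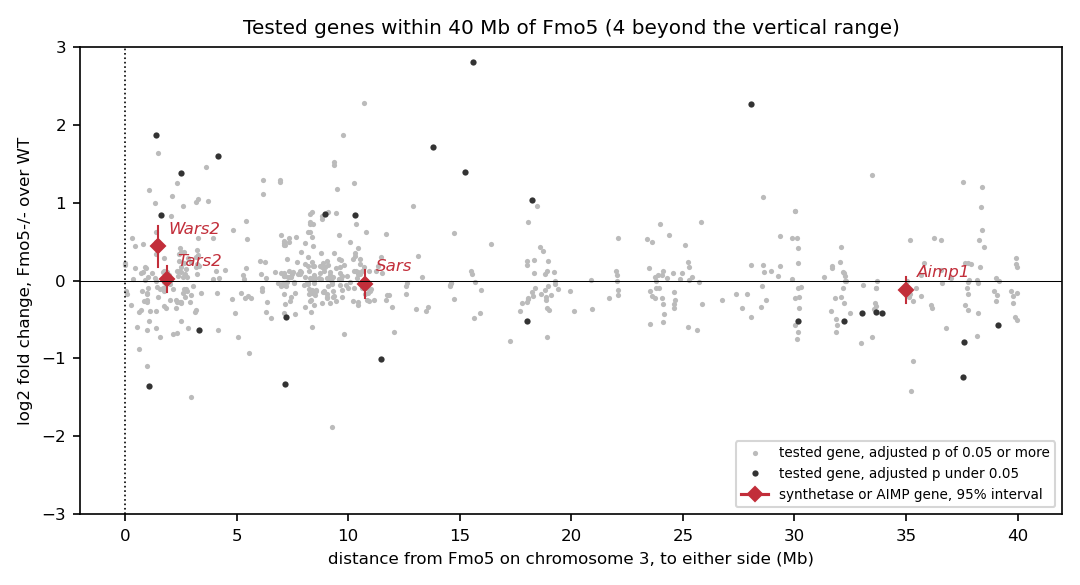
Log2 fold change of the 600 tested genes within 40 Mb of Fmo5 on chromosome 3, against distance to either side. Black points have an adjusted p under 0.05 in edgeR, red diamonds are the 4 members with 95% intervals, and 4 genes lie beyond the vertical range. Wars2 and Tars2 lie at similar distances, at 0.44 and 0.02.

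Lars2, the mitochondrial leucyl-tRNA synthetase, had the most counts of all members by far. Its normalised counts were 24203, 24050.5 and 20142 in the WT mice and 15589.6, 23929 and 23044 in the Fmo5-/- mice. Fmo5-/- mouse 1 was the lowest of the 6 and the other 5 overlapped, so the log2 fold change of -0.13 (SE 0.16, adjusted p = 0.695) turned to 0.04 without that library. Gm15564, a gene on chromosome 16 that was looked at after these values were seen, had 3599, 3673 and 2919 in the WT mice and 2344, 3628 and 3385 in the Fmo5-/- mice. The ratio of Lars2 to Gm15564 lay between 6.55 and 6.90 in all 6 livers. The annotated transcripts of the 2 genes share 23 words of 30 bases and 0 of 75 bases, and Lars2 shares 0 words of 30 bases with either rRNA gene of the mitochondrial genome. The level of Lars2 is given as uncertain. Without Lars2, the summed mitochondrial counts were 16905, 17188 and 15870.3 in WT and 15887, 15106 and 15658 in Fmo5-/- livers, a mean 6.63% lower with overlap.

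The genes of both compartments and the scaffold genes came out as follows. Gars, for glycine, had 1898, 2119 and 2099 in the WT mice and 2116, 1902 and 1964 in the Fmo5-/- mice, and its 95% interval of the log2 fold change ran from -0.22 to 0.15. Kars, for lysine, is the complex member that did not separate among the enzymes and had 2889, 3043 and 3019 in the WT mice and 3083, 3046 and 2673 in the Fmo5-/- mice, with an interval from -0.21 to 0.16. For both, the genotypes were interleaved and the sign of the log2 fold change turned when only genes with a mean of 500 or more were kept, to 0.03 and 0.04. Aimp1 had 1565, 1612 and 1589.9 in the WT mice and 1382, 1491 and 1517 in the Fmo5-/- mice (log2 fold change -0.12, SE 0.074, adjusted p = 0.390). All 3 Fmo5-/- livers lay below the WT livers. When only genes with a mean of 500 or more were kept, the log2 fold change of Aimp1 was -0.05 and it no longer separated. Aimp2 had 234, 273 and 233 in the WT mice and 237, 249.7 and 234 in the Fmo5-/- mice (log2 fold change -0.04, SE 0.13, adjusted p = 0.889). WT mouse 2 was the highest of the 6 and the other livers were interleaved.

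Cytosolic and mitochondrial enzymes for the same amino acid were set side by side in 19 pairs. The cytosolic log2 fold change was the lower of the pair in 13 and the higher in 6, with a median difference of -0.04. The difference ran from -0.49 for Wars and Wars2 to 0.25 for Cars and Cars2. In the pairs for histidine and isoleucine the values of both enzymes were similar, at -0.22 and -0.18 for Hars and Hars2 and -0.28 and -0.25 for Iars and Iars2. For threonine and asparagine the cytosolic enzymes were lower and the mitochondrial ones close to 0, at -0.31 and 0.02 for Tars and Tars2 and -0.24 and 0.01 for Nars and Nars2. The pair of tyrosine went the other way, with Yars2 at -0.26 and Yars at -0.07. Which of the pair had the lower value turned under at least 1 alternative in 8 of the 19 pairs, those for histidine, isoleucine and alanine among them. None of these differences between genes was tested.

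**Figure D5:**
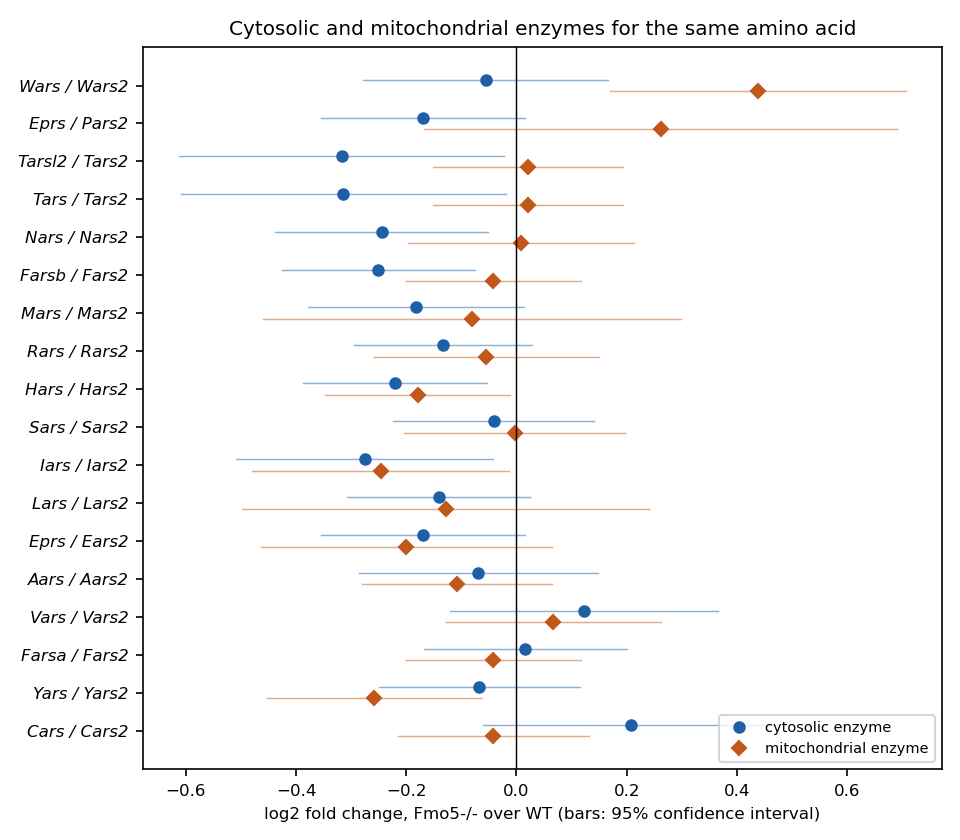
Log2 fold change, Fmo5-/- over WT, of the cytosolic enzyme (blue circle) and of the mitochondrial enzyme (orange diamond) for the same amino acid in 18 of the 19 pairs, with 95% confidence intervals from edgeR. Pairs are ordered by the difference, from -0.49 for Wars and Wars2 to 0.25 for Cars and Cars2. Intervals overlap in most pairs and barely fail to do so for Wars and Wars2.

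As levels per length, the cytosolic enzyme exceeded the mitochondrial enzyme in all 6 livers in 15 of the 19 pairs. The ratio was largest for methionine, where Mars was 59.6 to 88.8 times the level of Mars2, and for proline, where Eprs was 17.7 to 35.8 times that of Pars2. This order rests on length, since the principal transcript of Mars2 has 11294 bases and that of Pars2 2191. Mean normalised counts were 4036 and 222 for Mars and Mars2 and 7562 and 147 for Eprs and Pars2. By these counts the proline ratio was the larger. The ratio of levels was smallest among these 15 for Yars over Yars2, at 1.02 to 1.25. Iars, Lars and Tarsl2 lay below Iars2, Lars2 and Tars2 in every liver, at 0.691 to 0.864, 0.0712 to 0.118 and 0.219 to 0.386 times their level. The pair of Lars and Lars2 rests on the uncertain level of Lars2. Iars2 shares exons with another gene, and reads that hit several genes were left out, while its level uses the whole principal transcript.

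Some members share exon sequence with neighbours, and the counts do not use strand, so reads there cannot be told apart or were left out as ambiguous. Iars2 shares 22.9% of its exon bases with Rab3gap2 on the other strand, Aimp2 29.4% with Eif2ak1, and Farsb 9.47% with Sgpp2. Aars shares 14.3% with Exosc6 on the same strand. These are shares of all annotated exons, while levels use the principal transcript. Of the 75-base words of that transcript, Iars2 shares 36.3%, Aimp2 37.3%, Aars 22.1% and Farsb 8.97% with the same neighbours. Hars and Hars2 start head to head and share 195 bases, 7.97% and 4.56% of their exons, and were both lower in all 3 Fmo5-/- mice. Mars shares 68 bases with Ddit3, an ATF4 target. Iars shares 3.31% of its 75-base words with the pseudogene Gm4849. With the reads of 1 strand only, 0 members were called, and 14 separated as lower and 2 as higher. The strands held near equal counts in each library, as with 25391340 and 25377695 in WT mouse 1. The reads of 1 strand thus cannot tell a member from a neighbour on the other strand.

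Genes that serve tRNA charging beside the synthetases were taken as a list of 24, all tested. Of these, 21 had a log2 fold change below 0 and 3 above it, 0 were called by edgeR, 10 were lower and 1 was higher without overlap, and the median was -0.13. At the DESeq2 threshold 3 were lower. Over all tested genes 49.2% lay below 0, and 13.5% were lower and 13.9% higher without overlap. Of these genes 1.37% were called by edgeR, and DESeq2 called 4.21% of its genes as lower. Of the 17 genes of the list with a mean of 500 or more, 9 were lower without overlap, where 21.9% of all genes at that level were. Of the 17, 16 lay below 0, where 64.0% of those genes did. The list was not taken through the fit to genes with a mean of 500 or more. Gatb, a subunit of the mitochondrial amidotransferase that makes glutaminyl-tRNA, had a log2 fold change of -0.34 (adjusted p = 0.0588 in edgeR and 0.00949 in DESeq2). It lies on chromosome 3, 11.97 Mb from Fmo5, and the part of that position was not tested. Ppa1, a pyrophosphatase that clears the pyrophosphate the synthetases release, had -0.34 (adjusted p = 0.0802 and 0.0108). Asns, the asparagine synthetase, had 122, 132 and 179.9 in the WT mice and 69.9, 90.9 and 65.8 in the Fmo5-/- mice (log2 fold change -0.93, SE 0.22, adjusted p = 0.0687, and 0.00337 in DESeq2). Its Fmo5-/- livers all lay below its WT livers. Eef1a1, the elongation factor that takes charged tRNA to the ribosome, had -0.20 and also separated as lower. Eef1e1, the third scaffold protein of the complex, overlapped at -0.12.

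Of 24 genes of the ATF4 amino acid response, 22 were tested (Phgdh and Slc7a11 did not pass the filter). Of the 22, 9 lay below 0 and 13 above it, and the median was 0.08. By edgeR 0 were called, beside 1.37% of all tested genes. In DESeq2 1 (Asns) was lower, beside 4.21% of its genes. Without overlap 5 were lower and 2 higher (13.5% and 13.9% of all tested genes). Atf4 itself had a log2 fold change of 0.10 (SE 0.16). Chac1, Trib3 and Ddit3 are stress-induced targets. Chac1 and Trib3 had 0.32 (SE 0.35) and 0.16 (SE 0.16), both with overlap, and Ddit3 had -0.15 (SE 0.11) and was lower without overlap. Slc7a5, a transporter of large neutral amino acids, had 0.53 (SE 0.18) and was higher without overlap. Asns, which also stands in the list of tRNA charging genes, had the lowest log2 fold change of the 22.

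The promoters of members were searched for the C/EBP-ATF response element, spelled TGATGNAA and read on both strands, in windows of 250 bases before to 50 bases after the start from RefSeq (GRCm38.p6). Windows were given for 30 of the 40 members, and 5 of these held the element, Aars, Gars, Iars, Tars and Yars, beside 3.97% of all 32851 promoters. None of the 5 is a mitochondrial enzyme alone. The matches are shown because ATF4 is known to act through this element, and the promoters of the genes in the ATF4 list were not searched. Each line gives the strand of the gene from 5′ to 3′, with the element in capitals.
Aars, chr8:111033704-111033763, plus strand: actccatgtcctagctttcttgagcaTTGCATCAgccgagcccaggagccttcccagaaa
Tars, chr15:11399659-11399718, minus strand: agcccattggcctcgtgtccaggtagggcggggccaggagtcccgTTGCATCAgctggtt
Gars, chr6:55037941-55038000, plus strand: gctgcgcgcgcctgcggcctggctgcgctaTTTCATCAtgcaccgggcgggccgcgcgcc
Iars, chr13:49682126-49682155, plus strand: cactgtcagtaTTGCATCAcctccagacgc
Yars, chr4:129189895-129189924, plus strand: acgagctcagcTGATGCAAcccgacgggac

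The element starts 112 bases before the start in Aars, 15 in Tars and 30 in Gars, and at base 7 and base 3 after it in Iars and Yars. In Aars, Tars and Iars the capitals are the same 8 bases, the reverse complement of those in Yars. Aars holds a further match at base 9. The log2 fold changes of the 5 were -0.07, -0.31, -0.03, -0.28 and -0.07, a spread from -0.31 to -0.03. A match is a description of the letters and not a site of binding. Of the other motifs searched, the antioxidant response element TGACNNNGC was found in 8 of the 30 (12.4% of all promoters), the STAT site TTCNNNGAA, which reads the same on both strands, in 3 (8.30%), the interferon-stimulated response element in 1, Qars (3.44%), and the ER stress response element in 0 (0.119%). No match of the C/EBP-ATF element overlapped a match of these motifs.

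Wars is induced by interferon in human cells, so it was set beside 16 interferon-stimulated genes, of which 15 were tested. All 15 had a log2 fold change above 0, with a median of 0.94, 14 were higher without overlap, 4 (Irf7, Ifit1, Gbp3 and Gbp7) were called as higher by edgeR and 14 by DESeq2. Over all genes 13.9% were higher without overlap, and edgeR called 1.37% and DESeq2 8.96% in either direction. Gbp3, a guanylate-binding GTPase, had 269, 254 and 263 in the WT mice and 738, 984 and 524 in the Fmo5-/- mice (log2 fold change 1.51, adjusted p = 0.0208). Gbp3 and Gbp7 lie on chromosome 3, 44.9 Mb from Fmo5. Wars had 1202, 1332 and 1108 in the WT mice and 1134, 1281 and 1089 in the Fmo5-/- mice, with overlap. Its log2 fold change of -0.06 had a 95% interval from -0.28 to 0.17, which lies below the log2 fold change of each of the 15 interferon-stimulated genes.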

How the data were processed

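RNA was measured in the livers of 3 WT and 3 Fmo5-/- mice. The authors aligned adapter-clipped single reads to mm10 by STAR and deposited raw counts per gene for each library, of both strands and of each strand alone. Reads that hit several places or several genes were left out of these counts. The authors also deposited a DESeq2 comparison, whose signal columns hold the counts divided by 1 size factor per library and whose log2, score and p-value columns hold their own fold changes, Wald statistics and tests. Those were not used. The counts of both strands were analysed, since the deposited signal is a fixed multiple of them in each library.

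Of 67753857 to 75632821 reads listed per library, 66.2% to 69.2% were counted on genes. Only these entered the library sizes. Genes were filtered with filterByExpr (minimum count 10), given TMM factors and tested by edgeR 4.0.16 (robust quasi-likelihood F test) in R 4.3.3, two-sided, with Benjamini-Hochberg adjustment over 16734 genes and a threshold of 0.05. Intervals are 95% confidence intervals. An exact permutation of 3 against 3 libraries cannot go below a p of 0.1 and was not used. Positions, transcripts and lengths came from GENCODE vM21, which holds all 40 members, 37 of them in the same version. The annotation release behind the counts is not given in the sources used here. The members, classes, lists and motifs were chosen with earlier results of these data known. Results of 1 member by itself are not reported here, though it stands in the counts, sums and medians over members, and every other member is named. Among these, values for each mouse are printed for members called by either tool, the 4 smallest p-values per direction in each compartment, genes of both compartments, scaffolds and the 2 highest levels per compartment. Those of Wars are printed as well, beside the interferon-stimulated genes. Alternatives were DESeq2 1.42.0, RLE factors, scaling without the 20 most abundant genes, no filter, a mean of 500 or more before the fit, reads of 1 strand and each library left out. The steps were tested on simulated data.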

Additional observations from a re-analysis of the deposited data

How the results depend on the processing

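No paired analysis was made, since the 6 libraries are of different mice and the labels give no pairing across genotypes. DESeq2 called 1395 genes and 1 member as lower, edgeR with no filter on low counts called 1989 genes and 2 members as lower (Dars and Tars), and the fit to genes with a mean of 500 or more called 53 genes, beside 229 genes and 0 members as reported. The count of members higher without overlap, 1 as reported (Wars2), was 2 (Cars and Wars2) with scaling without the 20 most abundant genes and with the reads of 1 strand. Over the 36 members fitted with a mean of 500 or more, where Wars2 is not among them, it was 2 (Cars and Sars2) beside 0 for the same 36 as reported. The count of lower members, 15 as reported, was 9 in that fit, and the cytosolic median was then -0.078, while all shared genes shifted by a median of 0.06. Without WT mouse 1, 2 or 3 the calls were 62, 82 and 148 genes, and without Fmo5-/- mouse 1, 2 or 3 they were 31, 106 and 763. In these 6 fits 0 members were called, and between 15 and 21 were lower and between 1 and 3 higher without overlap. Leaving out a library can hardly undo a separation, so these counts are no check of it. The cytosolic median ran from -0.173 to -0.132 and the mitochondrial from -0.074 (without Fmo5-/- mouse 3) to -0.010 (without WT mouse 2). With Gars and Kars in both classes, or classes by the last character of the symbol, both added after the data had been seen, the cytosolic median was -0.14 and -0.13 and the mitochondrial -0.04 and -0.05.

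The log2 fold change turned sign at least once in 15 members, all within 0.13 of 0 as reported, and the cause was not tested. Nars2 turned to -0.0074 with DESeq2, -0.0040 with no filter and -0.0083 with the reads of 1 strand, and Sars2 to 0.0033 without the 20 most abundant genes. With a mean of 500 or more, Cars2 turned to 0.023, Fars2 to 0.022, Gars to 0.031, Kars to 0.041, Rars2 to 0.0090, Sars to 0.021, Sars2 to 0.062 and Wars to 0.011. With the reads of 1 strand, Cars2 turned to 0.031, Fars2 to 0.060, Kars to 0.030 and Sars2 to 0.012. With each library left out, Aars ran from -0.113 to 0.0022, Aimp2 from -0.075 to 0.041, Farsa from -0.033 to 0.056, Gars from -0.078 to 0.0014, Kars from -0.062 to 0.036, Lars2 from -0.239 to 0.042, Mars2 from -0.212 to 0.083, Nars2 from -0.062 to 0.067, Sars from -0.100 to 0.0024, Sars2 from -0.035 to 0.019, Tars2 from -0.020 to 0.052 and Wars from -0.127 to 0.017. The 4 members with a mean under 500 were Aimp2, Mars2, Pars2 and Wars2, and the SE of their log2 fold changes ran from 0.12 to 0.19.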
